A study of Mus musculus with 14 samples.

Results

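This report describes what separated all 9 anti-PD-1 tumors of a mouse colon carcinoma model from its 5 control IgG tumors, and which genes moved the same way in anti-PD-1 responders and in non-responders. All 14 tumors of the series took part. The control tumors were 14L, 14R, 16R, 17R, and 20R, the responders 24L, 26R, 30L, 30R, and 35L, and the non-responders 29L, 32R, 33L, and 33R. Each tumor grew from 250000 barcoded CT26 cells, a transplantable colorectal carcinoma line, placed under the skin of the left (L) or right (R) flank of female Balb/c mice aged 6 to 8 weeks. Control mice received IgG of clone 2A3 and treated mice anti-PD-1 of clone 1A12. Both antibodies were injected intraperitoneally at 200 µg from day 7, every 3 days for 5 doses, and tumors were taken 3 days after the last dose. Treatment was assigned to mice. The response class was set by the end size of each tumor relative to the controls, so a tumor's class was an outcome of treatment. The paper set a separate size limit for each class, so treated tumors of a size between the limits had no class. All 9 anti-PD-1 tumors here carry a class, so they do not stand for all treated tumors. All groups carried the same barcoded cell pool of 1 cell line. The paper describes cells placed in both flanks of each mouse, and not every tumor is among these 14. Tumor numbers show 3 mice with both tumors in the series (14, 30, and 33), which gave 4 control and 7 anti-PD-1 mice. Left flank tumors made up 1 of the 5 controls and 5 of the 9 anti-PD-1 tumors.

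PD-1 is an inhibitory receptor on activated T cells, and antibodies against it release T cells from that brake. T cells and natural killer cells then act on tumor cells through granzymes and interferon-gamma, and macrophages respond to these and to other cytokines. In macrophages, interferon-gamma favors antigen presentation, whereas interleukin-4 and interleukin-13 act through STAT6 to switch on an alternative program that includes Retnla, and the liver X receptors, which sense oxysterols, switch on lipid handling genes.

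RNA of whole tumors was sequenced, so that cancer cells, immune cells, and stroma were measured together. Total expected counts per tumor were between 33237744 and 48481461 and were similar in both arms, with a median of 40844266 in anti-PD-1 and 42110156 in control tumors (two-sided exact permutation test of the means, p = 0.598). The mean fragment length was 268.5 to 286.8 bases in anti-PD-1 and 267.7 to 276.7 in control tumors (two-sided exact permutation test, p = 0.0969). No pair of libraries in a group agreed within sampling noise. Non-responder 33R stood apart, with a chi-square per gene of 144 to 208 against the other non-responders, which differed from each other by 34.9 to 40.3, and with the longest fragments (286.8 bases). Values without 33R are therefore given beside the results that rest on it. The macrophage genes listed below summed to at least 10800 CPM in every tumor, and the epithelial genes listed for the cancer cells summed to only 12.3 to 55.0 CPM. Skin and muscle genes varied widely in all groups, and their values stand beside the gene lists. CPM here is the count relative to the library total after TMM scaling.

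Of the 53801 genes in the files, 16287 had enough counts to be tested. A test of the 9 anti-PD-1 tumors against the 5 control tumors called 10 genes, 0.0614% of those tested (edgeR quasi-likelihood test, Benjamini-Hochberg adjusted p under 0.05). Of these, 8 were higher after anti-PD-1 (0.0491%) and 2 were lower (0.0123%), whereas 2078 genes had an unadjusted p under 0.05. The 10 calls were all lost without control tumor 14L, 17R, or 20R, and their number rose to 57 without non-responder 33R, with all 10 among these. The 8 higher genes were Retnla, Cd5l, Lyz1, Ms4a8a, Pltp, Smpdl3a, Sox18, and the non-coding AI606473. The 2 lower genes were Zmynd15 and the non-coding AI197445. All 10 differed from controls by a log2 fold change of at least 0.5 in the same direction in responders and in non-responders. In all 10 the anti-PD-1 tumors and the control tumors did not overlap. The pooled test counts spread between the response classes as error, so it favors genes of this kind. The share of all genes tested that met the 0.5 rule is not given here. Across all genes tested, 83 (0.51%) had no overlap, of which 55 lay above and 28 below the controls. These differences are of whole tumors, in which more cells of a type and more RNA per cell cannot be told apart.

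Promoter sequences are shown for Retnla and Cd5l, the genes with the largest fold changes, and for Lyz1 beside its paralog Lyz2. Each line holds the 250 bases before the RefSeq start (GRCm38.p6), 5′ to 3′ on the gene's strand, and capitals mark a match to the STAT6-type motif TTCNNNNGAA. The Retnla window is chr16:48842359-48842608 on the plus strand, that of Cd5l chr3:87357631-87357880 on the plus strand, that of Lyz1 chr10:117292869-117293118 on the minus strand, and that of Lyz2 chr10:117282273-117282522 on the minus strand. The mm10 annotation starts Retnla at 48842551, inside the RefSeq window.
Retnla: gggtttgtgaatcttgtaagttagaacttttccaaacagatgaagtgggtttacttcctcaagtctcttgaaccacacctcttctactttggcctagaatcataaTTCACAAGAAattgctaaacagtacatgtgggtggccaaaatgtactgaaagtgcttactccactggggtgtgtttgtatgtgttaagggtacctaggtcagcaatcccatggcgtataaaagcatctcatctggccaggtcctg
Cd5l: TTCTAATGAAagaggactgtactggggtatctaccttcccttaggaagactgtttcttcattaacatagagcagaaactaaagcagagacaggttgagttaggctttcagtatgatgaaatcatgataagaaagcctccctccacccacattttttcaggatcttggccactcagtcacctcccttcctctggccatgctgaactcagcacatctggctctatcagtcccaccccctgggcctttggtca
Lyz1: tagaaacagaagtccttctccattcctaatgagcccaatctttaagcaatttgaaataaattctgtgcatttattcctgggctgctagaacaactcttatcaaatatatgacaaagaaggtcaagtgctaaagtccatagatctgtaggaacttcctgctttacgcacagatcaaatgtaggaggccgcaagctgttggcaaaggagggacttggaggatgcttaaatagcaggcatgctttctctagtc
Lyz2: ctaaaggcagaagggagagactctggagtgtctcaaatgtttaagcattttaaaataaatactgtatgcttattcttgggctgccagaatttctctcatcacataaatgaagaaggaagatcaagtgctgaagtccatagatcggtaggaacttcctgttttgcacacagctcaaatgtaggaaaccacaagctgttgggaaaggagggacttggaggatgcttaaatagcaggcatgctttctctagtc

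The STAT6-type match lay 145 to 136 bases before the start of Retnla and 250 to 241 before that of Cd5l. In Retnla, a C/EBP-type match (TTGCNNAA) followed at 134 to 127 bases before the start. Promoters were found for 7 of the 10 genes, and the STAT6-type motif occurred in 2 of those 7, the C/EBP-type motif in 3 (Lyz1, Pltp, and Retnla), the ETS-type motif GAGGAA in 3 (Cd5l, Pltp, and Retnla), and the nuclear receptor motif AGGTCA in 3 (Lyz1, Ms4a8a, and Retnla). Both strands were searched. Over all 32851 windows of the same length, the shares were 5.85% for the STAT6-type, 9.56% for the C/EBP-type, 23.3% for the ETS-type, and 14.0% for the nuclear receptor motif. The matches are a description of these letters only.

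**Figure D1:**
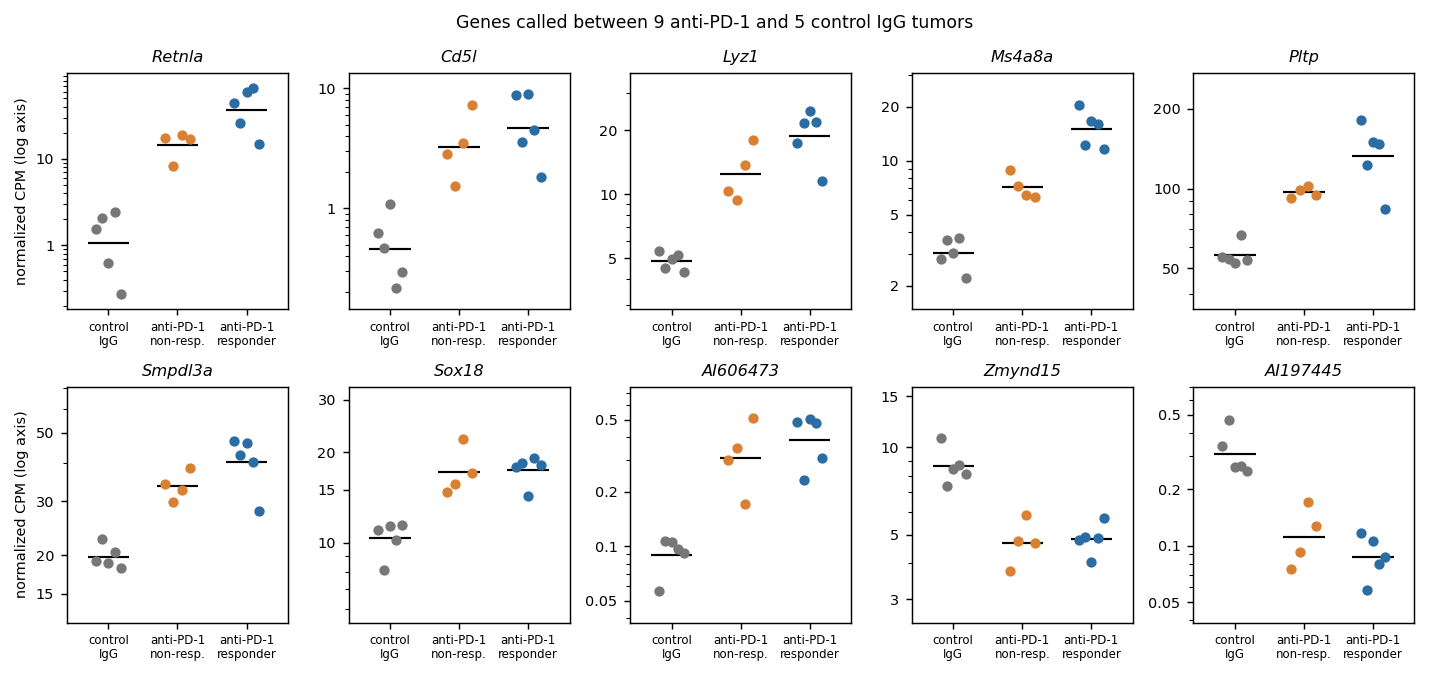
Normalized CPM (log axis) of the 10 called genes, 1 point per tumor, for 5 control IgG tumors, 4 anti-PD-1 non-responders, and 5 anti-PD-1 responders, with a line at the geometric mean. In each panel all anti-PD-1 tumors lie on the same side of all controls, for example Retnla at 8.27 CPM or more against 2.41 CPM or less.

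Retnla (ENSMUSG00000061100, mm10 chromosome 16, 48842551 to 48844461) encodes a secreted resistin-like protein of alternatively activated macrophages and had the largest fold change of the 10 genes. It was at 1.53, 2.09, 0.631, 2.41, and 0.274 CPM in control tumors 14L, 14R, 16R, 17R, and 20R. Responders 24L, 26R, 30L, 30R, and 35L held 44.1, 25.7, 59.6, 65.2, and 14.7 CPM, and non-responders 29L, 32R, 33L, and 33R held 17.4, 8.27, 18.7, and 17.1 CPM. The highest control tumor was thus below the lowest anti-PD-1 tumor, 32R, and responder 35L lay within the range of the non-responders. The pooled log2 fold change of Retnla was 4.43, with a standard error (SE) of 0.63 and an edgeR adjusted p of 0.0152, which is a fold of 21.6. It was 4.91 in responders and 3.46 in non-responders, and the difference between the classes of 1.45 did not pass the test (SE 0.48, adjusted p = 0.0702 with edgeR).

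Cd5l (chromosome 3, 87357881 to 87371073), a secreted scavenger receptor protein that macrophages make, was low in controls, at 0.625, 0.47, 1.08, 0.217, and 0.297 CPM in 14L, 14R, 16R, 17R, and 20R. It reached 8.83, 3.56, 8.93, 4.51, and 1.83 CPM in responders 24L, 26R, 30L, 30R, and 35L, and 2.82, 1.55, 3.51, and 7.22 CPM in non-responders 29L, 32R, 33L, and 33R. Both classes lay above all controls and overlapped each other, but the non-responders other than 33R reached no more than 3.51 CPM. The pooled log2 fold change of Cd5l was 3.15 (SE 0.53, adjusted p = 0.0371 with edgeR), with 3.37 in responders and 2.81 in non-responders. Without 33R it was 2.28 in non-responders. Cd5l was under the minimum mean log2 CPM of 1 set for naming genes and was chosen after its values were seen, as were AI606473 and AI197445.

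Lyz1 (chromosome 10, 117287797 to 117292868) encodes the lysozyme known from Paneth cells of the gut, and its neighbor Lyz2 the lysozyme of macrophages and neutrophils. Lyz1 was at 5.4, 4.51, 4.94, 5.16, and 4.3 CPM in control tumors 14L, 14R, 16R, 17R, and 20R. It was at 17.5, 21.7, 24.8, 21.9, and 11.5 CPM in responders 24L, 26R, 30L, 30R, and 35L, and at 10.4, 9.43, 13.8, and 18.1 CPM in non-responders 29L, 32R, 33L, and 33R. The controls formed a narrow group, and every anti-PD-1 tumor lay above it. The log2 fold change of Lyz1 was 1.77 (SE 0.23, adjusted p = 0.0152 with edgeR), a fold of 3.41, with 2.0 in responders and 1.41 in non-responders.

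Lyz2 did not pass the test, with a log2 fold change of 0.35 (SE 0.12, adjusted p = 0.249 with edgeR), which was 0.35 in each class. The equal class values rested on 33R, without which they were 0.36 in responders and 0.13 in the other non-responders. Per length, Lyz2 was at 2040 ± 74.7 TPM in controls (SD, n = 5) and Lyz1 at 5.68 ± 0.798 TPM (SD, n = 5), so that the gene that passed was the minor lysozyme of these tumors. In anti-PD-1 tumors Lyz2 was at 2640 ± 407 TPM and Lyz1 at 19.9 ± 7.73 TPM (SD, n = 9). Of the 1189 windows of 75 bases in Lyz1 transcripts, 74 (6.22%) also occurred in Lyz2, and RSEM divides such fragments between the genes, so the level of Lyz1 carries that uncertainty. None of the other 9 genes shared such a window with another gene. Transcripts were compared in their own direction only, so stretches shared with genes on the opposite strand were not searched.

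Ms4a8a (chromosome 19, 11067471 to 11081102), a membrane-spanning protein of the Ms4a family, was at 2.84, 3.61, 3.05, 3.71, and 2.22 CPM in controls 14L, 14R, 16R, 17R, and 20R. Non-responders 29L, 32R, 33L, and 33R held 8.92, 7.25, 6.43, and 6.27 CPM, and responders 24L, 26R, 30L, 30R, and 35L held 20.5, 12.2, 16.6, 16.0, and 11.6 CPM. The 3 groups did not overlap, with non-responders between controls and responders. The pooled log2 fold change of Ms4a8a was 1.93 (SE 0.30, adjusted p = 0.0279 with edgeR), and it was 2.32 in responders and 1.23 in non-responders. Responders exceeded non-responders by 1.09 (SE 0.19, adjusted p = 0.00751 with edgeR), which made Ms4a8a the only 1 of the 10 genes that also differed between the classes when all tumors were used, against 9.9% of all genes tested.

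Pltp (chromosome 2, 164839518 to 164857711), the phospholipid transfer protein of plasma lipoproteins, was at 55.3, 54.2, 52.4, 66.5, and 53.7 CPM in controls 14L, 14R, 16R, 17R, and 20R. It was at 182, 123, 150, 147, and 83.8 CPM in responders 24L, 26R, 30L, 30R, and 35L, and at 92.1, 98.3, 102, and 94.5 CPM in non-responders 29L, 32R, 33L, and 33R. The non-responders were close together, and responder 35L was the lowest anti-PD-1 tumor. Its pooled log2 fold change was 1.08 (SE 0.18, adjusted p = 0.0367 with edgeR), with 1.28 in responders and 0.78 in non-responders. Pltp overlaps Ctsa on the opposite strand, and Ctsa did not pass the test (log2 fold change 0.06, SE 0.08, adjusted p = 0.816 with edgeR).

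Smpdl3a (chromosome 10, 57794335 to 57811830) encodes a secreted phosphodiesterase related to acid sphingomyelinase. It was at 19.1, 22.6, 18.9, 20.5, and 18.1 CPM in controls 14L, 14R, 16R, 17R, and 20R, at 47.2, 42.3, 46.4, 40.3, and 27.9 CPM in responders 24L, 26R, 30L, 30R, and 35L, and at 34.1, 29.9, 32.6, and 38.3 CPM in non-responders 29L, 32R, 33L, and 33R. As for Pltp, responder 35L lay below the 4 non-responders. The log2 fold change of Smpdl3a was 0.92 (SE 0.13, adjusted p = 0.0152 with edgeR), a fold of 1.90, with 1.04 in responders and 0.76 in non-responders.

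Sox18 (chromosome 2, 181669836 to 181671640), a transcription factor of endothelial cells, differed from controls by nearly the same amount in each class. It was at 11, 8.13, 11.4, 10.2, and 11.5 CPM in controls 14L, 14R, 16R, 17R, and 20R. Responders 24L, 26R, 30L, 30R, and 35L were at 17.9, 18.5, 14.3, 19.1, and 18.2 CPM and non-responders 29L, 32R, 33L, and 33R at 14.8, 15.7, 22.1, and 17.1 CPM, so the classes overlapped each other. The pooled log2 fold change of Sox18 was 0.74 (SE 0.11, adjusted p = 0.0279 with edgeR), with 0.75 in responders and 0.74 in non-responders. Endothelial genes as listed below had a median log2 fold change of 0.18 over 11 genes, and none was called.

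Zmynd15 (chromosome 11, 70459433 to 70466202), a zinc finger protein known as a transcriptional repressor in the testis, fell after anti-PD-1. It was at 10.8, 7.34, 8.41, 8.73, and 8.07 CPM in controls 14L, 14R, 16R, 17R, and 20R. Responders 24L, 26R, 30L, 30R, and 35L held 4.79, 4.90, 4.04, 4.87, and 5.73 CPM, and non-responders 29L, 32R, 33L, and 33R held 3.74, 4.77, 5.83, and 4.69 CPM. The highest anti-PD-1 tumor was 33L, below every control, and the classes covered much the same range. The log2 fold change of Zmynd15 was -0.85 (SE 0.12, adjusted p = 0.0152 with edgeR), with -0.83 in responders and -0.87 in non-responders. Zmynd15 overlaps Cxcl16 on the opposite strand, and the library protocol was not stated to keep strand, so reads of the shared stretch cannot be told apart. Cxcl16, which was more abundant, did not pass the test (log2 fold change -0.22, SE 0.09, adjusted p = 0.327 with edgeR).

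The 2 non-coding genes were close to the limit of these libraries. AI606473 (chromosome 3, 154330821 to 154334254), annotated as a processed transcript, had 2 to 5 counts in control tumors and 6 to 24 in anti-PD-1 tumors, with a log2 fold change of 1.97 (SE 0.33, adjusted p = 0.0367 with edgeR). AI197445 (chromosome 13, 107469822 to 107482718), annotated as a lincRNA, had 10 to 22 counts in controls and 2 to 6 in anti-PD-1 tumors, with a log2 fold change of -1.64 (SE 0.27, adjusted p = 0.0367 with edgeR). Both calls rest on few counts, and the difference of AI197445 was 0.06 on the scale of log2(TPM + 1), where 33R stood at 2.96 TPM with 4 counts and the other 8 anti-PD-1 tumors at 0.03 to 0.09 TPM, against 0.12 to 0.23 TPM in controls. Without 33R the difference on that scale was -0.15.

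Each response class was then set against the same 5 control tumors. Both comparisons share these controls, so agreement between them is not independent evidence. All 10 genes passed the test in responders, where 2147 genes (13.2%) did. The 10 genes were chosen by a test that held these same responders and controls, so their passing here is no further support. None of the 10 passed in non-responders, where 0 genes did (0.0%) with edgeR, 758 had an unadjusted p under 0.05, and DESeq2 called 18. In non-responders, the smallest edgeR adjusted p of the 10 was 0.0683, reached by Lyz1, Retnla, and Ms4a8a. The difference from controls was larger in responders for 9 of the 10 genes, with Zmynd15 as the exception. Of the 10, only Ms4a8a passed the test of that difference, and without 33R Lyz1 also passed it (adjusted p = 0.0431 with edgeR), with 2.01 in responders and 1.19 in the other non-responders. Without 33R no gene was called in non-responders either, and 691 had an unadjusted p under 0.05.

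Spread between responders and non-responders counts as error in the pooled test. A fit with the 3 groups, in which the mean of both class differences was tested, called 242 genes (1.49%), 155 higher (0.952%) and 87 lower (0.534%). Only 75 of these differed from controls by at least 0.5 in the same direction in both classes, 64 of them higher and 11 lower. This number was 10 without control tumor 20R and 117 without non-responder 33R. In the right flank tumors alone the 3-group fit called no gene (smallest edgeR adjusted p = 0.0546, 1522 genes at an unadjusted p under 0.05), and with 1 library per mouse 93 genes moved the same way, of which 47 were among the 75. Another 163 had the same sign with less than 0.5 in a class, and 4 had opposite signs. Of the 242 genes, 141 also differed between responders and non-responders, and of the 75, 24 did, against 1612 (9.9%) of all genes tested. The 75 genes held all 10 of the pooled test, and in 26 of the 75 the anti-PD-1 and control tumors did not overlap. The difference was at least as large in non-responders as in responders for 9 of the 75.

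**Figure D2:**
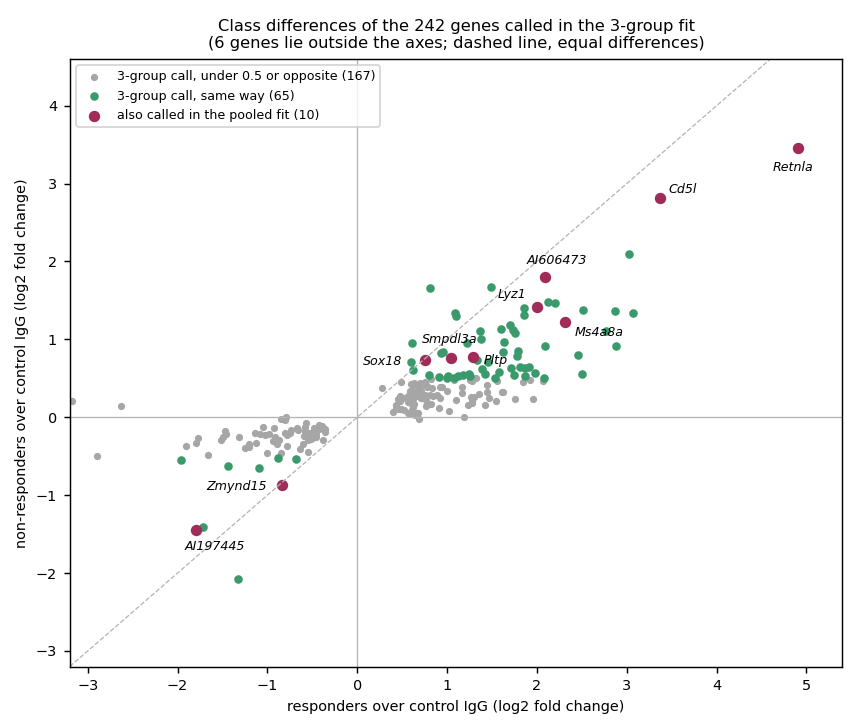
Log2 fold change of responders over control IgG (x axis) against that of non-responders over control IgG (y axis) for the 242 genes called in the 3-group fit, with the same controls on both axes. Most points lie between the x axis and the dashed line of equal differences, with Retnla and Cd5l far out and Sox18 and Zmynd15 next to that line. There are 6 genes outside the axes.

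The genes named from this fit were chosen after their values were seen. Wfdc17, a small secreted protein of the whey acidic protein family that macrophages make, was at 31.4 to 48.4 CPM in controls, 63.1 to 143 CPM in non-responders, and 48.7 to 97.4 CPM in responders, so it did not overlap with controls. Its log2 fold change was 1.10 in responders and 1.30 in non-responders (mean of both, edgeR adjusted p = 0.0196). Hsf2bp, a protein of meiotic recombination, was at 0.21 to 0.458 CPM in controls, 0.855 to 0.997 CPM in non-responders, and 0.641 to 0.959 CPM in responders, a difference of 1.09 and 1.34 (edgeR adjusted p = 0.0175). For these 2 genes the non-responders stood at least as far from the controls as the responders did, but without 33R Wfdc17 had 0.95 in non-responders, less than in responders, and Hsf2bp 1.36.

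Nr1h3, which encodes the liver X receptor alpha, was at 3.95, 5.44, 4.2, 4.29, and 3.36 CPM in controls 14L, 14R, 16R, 17R, and 20R. Non-responders 29L, 32R, 33L, and 33R held 7.0, 7.5, 6.06, and 10.2 CPM, and responders 24L, 26R, 30L, 30R, and 35L held 21.2, 11, 16.5, 17.3, and 7.24 CPM. All anti-PD-1 tumors lay above the controls. Nr1h3 differed by 1.78 in responders and 0.85 in non-responders on the log2 scale (mean of both, edgeR adjusted p = 0.0187), and the classes differed from each other by 0.93 (edgeR adjusted p = 0.0393). F10, coagulation factor X, was at 0.731 to 2.24 CPM in controls, 2.96 to 3.36 in non-responders, and 3.4 to 6.85 in responders, with log2 fold changes of 1.09 and 1.76 in the classes (edgeR adjusted p = 0.0187).

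Natural killer and cytotoxic genes were also among the 75. Klrb1c, which encodes the receptor known as NK1.1, was at 0.499 to 1.09 CPM in controls, 1.11 to 1.74 in non-responders, and 1.2 to 3.26 in responders, without overlap between controls and anti-PD-1 tumors but with a narrow gap. Ncr1, the activating receptor NKp46, had log2 fold changes of 1.12 in responders and 0.53 in non-responders (edgeR adjusted p = 0.0404), and non-responder 29L at 4.68 CPM lay within the controls at 4.12 to 5.02 CPM. Gzma, granzyme A, was at 20.6 to 32.9 CPM in controls, 27.0 to 65.1 in non-responders, and 44.7 to 93.5 in responders, with differences of 0.74 and 1.33 (edgeR adjusted p = 0.0397). Igha, the constant region of IgA, had 1.37 and 2.87 (edgeR adjusted p = 0.0341), and non-responder 32R at 0.672 CPM lay within the controls at 0.343 to 1.28 CPM. For Ncr1, Gzma, and Igha, some non-responders did not leave the control range. Without 33R the difference in non-responders was 0.29 for Ncr1 and 0.45 for Gzma, under the 0.5 asked for, and 1.19 for Igha.

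Among the 11 lower genes were Gpr183, a receptor for oxysterols, Lif, a cytokine of the interleukin-6 family, and Fcrls and Gpr34, which are expressed by macrophages. Gpr183 was at 6.04 to 7.98 CPM in controls, 4.06 to 5.47 in non-responders, and 3.08 to 4.6 in responders, with log2 fold changes of -0.53 and -0.88 (edgeR adjusted p = 0.0196). Lif was at 16.8 to 23.9 CPM in controls, 11.5 to 17.3 in non-responders, and 10.7 to 14.9 in responders, with -0.53 and -0.69, and -0.45 in non-responders without 33R (edgeR adjusted p = 0.0187). Only Gpr183 of these 4 had no overlap between anti-PD-1 and control tumors. Fcrls was at 15.1 to 52.2 CPM in controls and 5.68 to 18.8 CPM in anti-PD-1 tumors, with -1.42 in non-responders and -1.72 in responders (edgeR adjusted p = 0.0287).

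**Figure D3:**
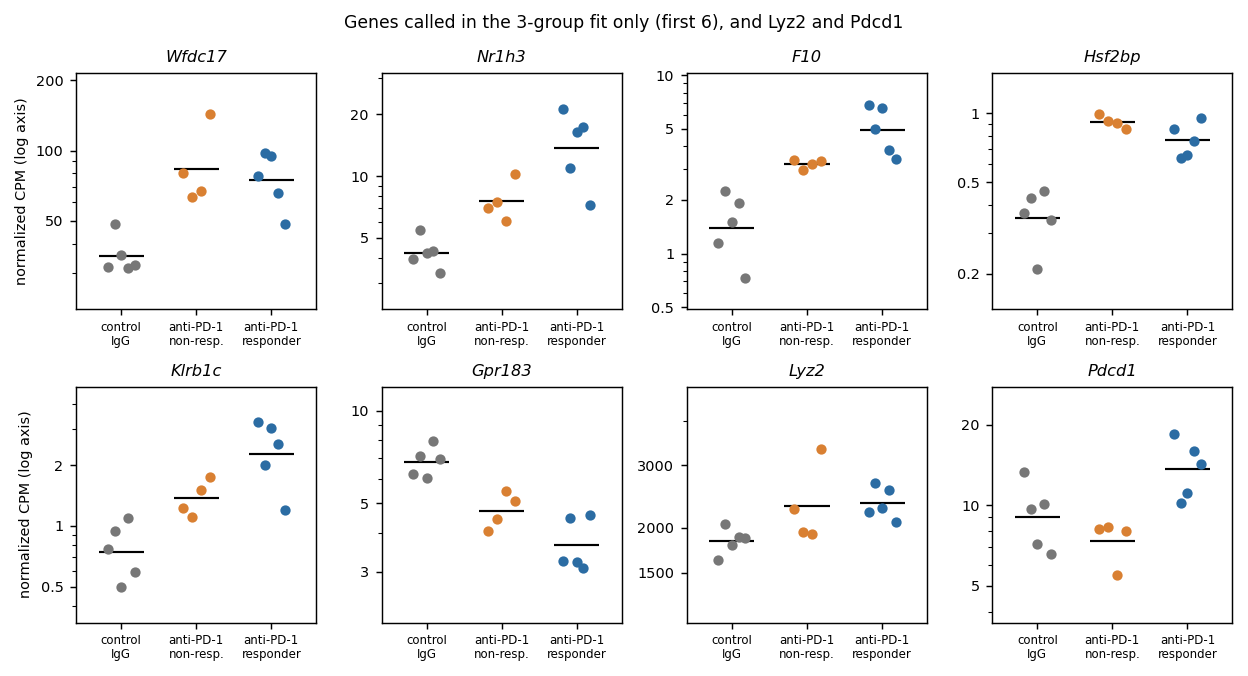
Normalized CPM (log axis) of 6 genes called in the 3-group fit and not in the pooled fit, and of Lyz2 and Pdcd1, 1 point per tumor, with a line at the geometric mean of each group. Wfdc17, Nr1h3, F10, Hsf2bp, Klrb1c, and Gpr183 show no overlap between the 9 anti-PD-1 and the 5 control tumors, whereas Lyz2 and Pdcd1 overlap.

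Pdcd1, which encodes PD-1, was compared because its protein is the antibody's target. It was at 13.3, 9.69, 7.15, 10.1, and 6.58 CPM in controls 14L, 14R, 16R, 17R, and 20R, at 18.5, 10.2, 11.1, 15.9, and 14.3 CPM in responders 24L, 26R, 30L, 30R, and 35L, and at 8.12, 8.27, 5.47, and 7.98 CPM in non-responders 29L, 32R, 33L, and 33R. Controls overlapped with both classes, and the classes did not overlap each other. The pooled log2 fold change of Pdcd1 was 0.25 (SE 0.26, adjusted p = 0.765 with edgeR), with 0.58 in responders and -0.33 in non-responders. Between the classes, the difference was 0.91 (SE 0.22, adjusted p = 0.0244 with edgeR). The antibody binds the protein, so the transcript is no measure of binding.

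Lists of pathway and cell type genes were described by their counts and medians. In the pooled test, 3 of the 28 lists had a called member each, and the other 25 had none. The median log2 fold change of all genes tested was 0.002, with -0.011 in responders and 0.006 in non-responders. In the 18 alternatively activated macrophage genes, Retnla was the only member called, and the median was 0.34, with 0.44 in responders and -0.13 in non-responders. Other members of that list, Arg1 at 0.39, Mrc1 at 0.03, Chil3 at -0.26, and Mgl2 at -0.38, did not pass the pooled test, and Clec10a passed the 3-group test. In the 18 pan-macrophage and lysozyme genes, Lyz1 was the only member called, and the median was 0.13, with 0.24 and -0.04 in the classes. The summed level of that list was 10800 to 13500 CPM in controls, 11700 to 14400 CPM in non-responders, and 12800 to 13300 CPM in responders, so that the macrophage transcripts as a whole overlapped between the groups. In the 14 Ms4a and Tmem176 genes tested, Ms4a8a was the only member called, and the median was 0.20, with 0.30 and 0.09 (-0.03 without 33R).

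T cell, antigen presentation, and interferon lists had larger medians in responders than in non-responders. Without 33R the non-responder median was 0.03 for the T cell, 0.24 for the MHC class II, -0.10 for the interferon-gamma, -0.03 for the MHC class I, and -0.12 for the type I interferon list. The 16 T cell and cytotoxic genes had a median of 0.67, with 1.06 in responders and 0.19 in non-responders. None passed the pooled test and 3 (Gzma, Cd2, and Ccl5) the 3-group test, and Gzmb was at 0.51 (edgeR adjusted p = 0.44) and Prf1 at 0.16 (edgeR adjusted p = 0.844). The 11 MHC class II genes had a median of 1.25, with 1.74 and 0.22, and Ctss passed the 3-group test. Cd74, the invariant chain, was at 346 ± 177 CPM in 5 controls, 404 ± 117 CPM in 4 non-responders, and 1310 ± 416 CPM in 5 responders (mean ± SD). The 20 interferon-gamma response genes had medians of 1.01 in responders and -0.07 in non-responders (0.61 pooled, Ifngr1 called in the 3-group test). Of these 20 genes, 16 differed between the classes, against 9.9% of all genes tested. Gbp2, a member of this list, had 1.38 and 0.00 in the classes. The 13 MHC class I genes had a median of 0.39, with 0.60 and -0.00, and B2m was at 0.09 and H2-D1 at 0.15, neither past the test. The 18 type I interferon antiviral genes had 0.39, with 0.54 and 0.14, and included Irf7 at 0.61 and Bst2 at 0.41, neither past the test.

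Other immune lists showed the same order of the classes. Without 33R the non-responder median was -0.01 for the inhibitory receptor, 0.23 for the NK cell, and -0.02 for the B and plasma cell list. It was -0.17 for the dendritic cell, 0.09 for the complement, and -0.15 for the Fc receptor list. The 12 inhibitory receptors and ligands had a median of 0.40, with 0.58 in responders and 0.01 in non-responders, among them Vsir at 0.39 and Rgmb at 0.41, of which Rgmb passed the 3-group test. The 8 NK cell genes tested had a median of 0.84, with 1.10 and 0.39, and 2 (Klrb1c and Ncr1) passed the 3-group test, with Klrk1 at 0.59 not past either. The 14 B and plasma cell genes tested had 1.66, with 2.31 and 0.11, and 2 (Pax5 and Igha) passed the 3-group test, whereas Xbp1 was at 0.03 and Sdc1 at 0.07. The 11 dendritic cell genes tested had 0.41, with 0.70 and 0.04, and 2 (Clec9a and Xcr1) passed the 3-group test, with Fscn1 at -0.09. The 16 complement genes had 0.45, with 0.60 and 0.06, and C4b and Cfb passed the 3-group test, with C1qa at 0.12 and C1qb at 0.13. The 8 Fc receptors tested had 0.14, with 0.26 and -0.09, and Fcgr2b was at -0.20 and Fcgrt at 0.24, neither past the test.

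In the chemokine list, Ccl6 and Ccl9 were higher by like amounts in both classes and did not pass. Ccl6, a macrophage chemokine, had log2 fold changes of 0.83 in responders and 0.76 in non-responders (pooled edgeR adjusted p = 0.146, 3-group 0.0513). Ccl9 had 0.66 and 0.73 (pooled edgeR adjusted p = 0.183, 3-group 0.0956). Ccl12 was lower in both classes and did not pass either, with -1.3 in responders and -0.72 in non-responders (pooled edgeR adjusted p = 0.183, 3-group 0.0744). Cxcl16 was at -0.22 and -0.23 in these classes. The 13 monocyte chemokines and receptors had a median of 0.34, with 0.47 and 0.06 (-0.15 without 33R), and none called. The 12 neutrophil genes tested had -0.06, with -0.34 and 0.11, and Mmp9 was at 0.54 and Lcn2 at 0.48. The 11 eosinophil and mast cell genes tested had 0.01, with 0.02 and -0.11, and Tpsab1 was at -0.41 and Cma1 at 0.01.

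Lists of stroma, cancer cells, and metabolism held no called gene in the pooled or the 3-group test. The 15 fibroblast and collagen genes had a median of 0.28, with 0.38 and 0.08, and Col1a2 was at 0.29 and Col3a1 at 0.37. The 11 endothelial genes had 0.30 and 0.01 in the classes, and Pecam1 was at 0.18 and Cdh5 at 0.10. The 9 adipocyte genes had 0.15, with 0.17 and 0.08 (-0.41 without 33R), and Fabp4 was at 0.21 and Lpl at 0.75. The 15 proliferation genes had -0.08, with -0.10 and -0.12, and Pcna was at -0.08 and Top2a at -0.07. The 15 hypoxia and glycolysis genes had -0.03, with -0.08 and -0.01, and Ldha was at 0.04 and Pgk1 at -0.00. The 83 cytosolic ribosomal proteins tested had -0.12, with -0.38 in responders and 0.14 in non-responders, and Rps4x was at -0.32 and Rpl4 at -0.17. The 76 nuclear oxidative phosphorylation genes tested had -0.03, with -0.18 and 0.13, and Atp5b was at -0.10 and Atp5a1 at -0.11. The ribosomal and respiratory medians above 0 in non-responders rested on 33R. This tumor held 136000 CPM of ribosomal protein transcripts against 76800 to 87900 CPM in the other non-responders. Without 33R the medians were -0.08 for the ribosomal and -0.06 for the respiratory list.

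The lists of skin, muscle, cancer cell epithelium, and blood had medians below 0, and none of their members passed the pooled or the 3-group test. Non-responder 33R held the least skin and the most muscle transcripts of its class, and without it the non-responder medians were -0.53 for skin and -1.49 for muscle. The 15 skin epidermis genes had a median of -0.61, with -0.55 in responders and -0.74 in non-responders, and their summed level was 10.8 to 890 CPM in controls, 170 to 379 CPM in non-responders, and 17.5 to 1210 CPM in responders. Krt14 was at -0.82 and Krt10 at -0.57. The 15 skeletal muscle genes had -0.52, with -0.60 and -0.43, and summed to 171 to 1730 CPM in controls, 128 to 995 CPM in non-responders, and 36.1 to 606 CPM in responders. Acta1 was at -0.56 and Myh4 at -0.53. The 8 epithelial genes of the cancer cells tested had -0.61, with -0.53 and -0.62, and Krt18 was at -0.18 and Krt8 at -1.36. The 6 erythroid genes tested had -0.38, with -2.08 in responders and 0.54 in non-responders, and Hbb-bs was at -2.27 and 0.54 and Hba-a2 at -2.06 and 0.68 in these classes. With the mean skin level as a covariate the pooled test called 11 genes, and with the mean muscle level 5 (Retnla, Lyz1, Smpdl3a, Sox18, and Zmynd15), and the log2 fold change of Retnla was 4.43 in each.

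**Figure D4:**
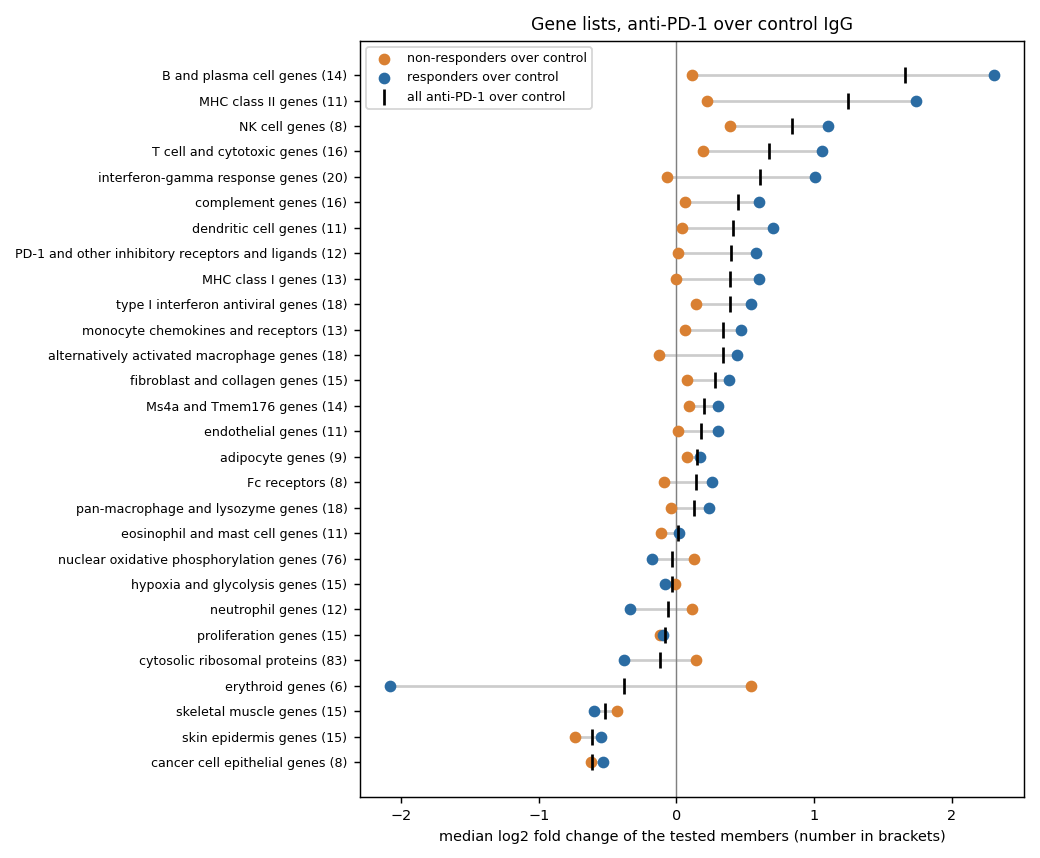
Median log2 fold change (x axis) of the tested members of each of 28 gene lists, for responders over control IgG, non-responders over control IgG, and all anti-PD-1 tumors over control IgG, with the number of members in brackets. Medians of the lists of T cell, NK cell, B cell, interferon, and antigen presentation genes lie further right in responders than in non-responders, for example MHC class II genes at 1.74 and 0.22, and that of the neutrophil genes lies further left, whereas skin and muscle lists lie left of 0 in both.

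The calls depended on single tumors more than the fold changes did. In the pooled test without control tumor 14L, 17R, or 20R, in which no gene passed, the smallest edgeR adjusted p-values were 0.0513, 0.0637, and 0.0657, and 1812, 1720, and 1343 genes had an unadjusted p under 0.05. With 1 library per mouse, or in the right flank tumors alone (4 anti-PD-1 and 4 controls), no gene passed either, with smallest edgeR adjusted p-values of 0.0745 and 0.266 and 2773 and 1068 genes at an unadjusted p under 0.05. In the fits with 1 library per mouse and with the right flank alone, the log2 fold change of Retnla was 4.47 and 4.42, that of Lyz1 1.65 and 1.91, that of Ms4a8a 2.01 and 1.73, that of Smpdl3a 0.95 and 0.91, and that of Zmynd15 -0.90 and -0.76. With each tumor left out in turn, Retnla stayed between 4.16 and 4.73, Lyz1 between 1.68 and 1.84, Smpdl3a between 0.88 and 0.97, and Sox18 between 0.66 and 0.78.

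**Figure D5:**
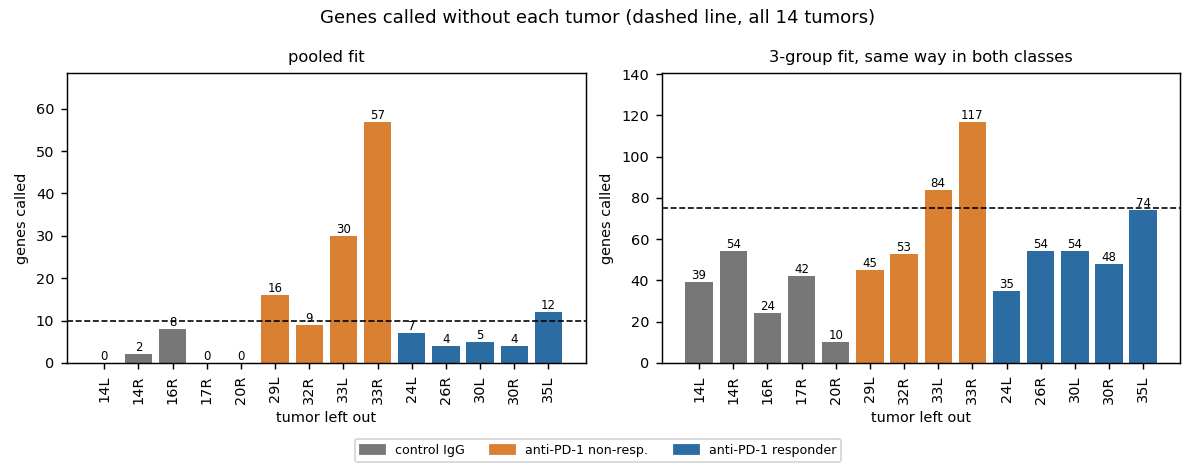
Number of genes called when the tumor on the x axis was left out, in the pooled test (left) and among genes that moved the same way in the 3-group fit (right), with bars colored by the group of the tumor and a dashed line at 10 and 75 genes for all 14 tumors. Leaving out a control tumor lowered both numbers, down to 0 and 10, and leaving out non-responder 33R raised them to 57 and 117.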

How the data were processed

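Bulk RNA-seq of 14 CT26 tumors was used, grouped by the treatment and response labels. The authors sequenced poly(A) RNA, aligned the read pairs to mm10 with STAR, and deposited the output of RSEM per tumor without pooling. Strand setting and annotation release are not given in the sources used here. The expected counts deposited are unscaled fragment estimates. The authors' TPM values are scaled by length and to a common total, and their FPKM values were not used. Expected counts were rounded and tested with edgeR 4.0.16 in R 4.3.3 (TMM, filterByExpr over the 3 response groups, quasi-likelihood test, Benjamini-Hochberg adjustment, threshold 0.05). The main model compared 9 anti-PD-1 with 5 control tumors, each taken as a replicate, so p-values treat tumors of the same mouse as independent. A model of the 3 groups gave the class differences. A shared direction required a log2 fold change of at least 0.5 in both classes. Standard errors are the absolute log2 fold change divided by the square root of F. The prior count for log2 CPM was 2, and 1 was added to TPM before logs. With 3 counts as the floor, the lowest detectable share of a library covers counting error only.

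Symbols (53706 of 53801 genes), positions, and overlaps came from GENCODE for GRCm38, and promoters from RefSeq for GRCm38.p6. The genes and the 28 lists were chosen with earlier results of these data known. The rule named, in each direction, up to 12 called genes that moved the same way in both classes without overlap and with a mean log2 CPM of 1 or more, of each list up to 4 called members or the 2 most abundant, and Pdcd1. Alternatives were DESeq2 1.42.0, limma 3.58.1 (voom, alone or with a random effect for mouse), other scalings and filters, log2(TPM + 1), 1 library per mouse, and the omission of each tumor. Covariates for skin and muscle genes and the right flank alone were added after seeing the data. The scripts were tested on simulated data. Some genes and a motif are not reported here. Barcodes, receptor repertoires, and cell lines were not analysed here.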

Additional observations from a re-analysis of the deposited data

Results flagged for a closer look

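In 5 cases a tumor stood apart from the others of its group on the log2 scale, a distance that chance gives in about 1 of 20 groups. Several genes and groups were looked at, so chance alone would give some such cases. Non-responder 32R was low for Retnla at 8.27 CPM, against 17.1 to 18.7 CPM in the other non-responders. Responder 30L was low for Sox18 at 14.3 CPM, and control tumor 17R was high for Pltp at 66.5 CPM, against 52.4 to 55.3 CPM in the other controls. Control tumor 14L was low for AI606473 at 0.0568 CPM, which is 2 counts. Non-responder 33L was low for Pdcd1 at 5.47 CPM.

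The difference from control IgG was unlike between the response classes for 3 of the genes described by tumor. Over all genes tested, 1612 (9.9%) differed between the classes. Responders exceeded non-responders by 1.09 for Ms4a8a (edgeR adjusted p = 0.00751), by 0.91 for Pdcd1 (edgeR adjusted p = 0.0244), and by 0.93 for Nr1h3 (edgeR adjusted p = 0.0393) on the log2 scale. Ms4a8a and Nr1h3 were above the control range in 9 of 9 anti-PD-1 tumors, and Pdcd1 was above it in 3 of 9.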

How the results depend on the processing

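The pooled test called 10 genes, and this number was 0 with 1 library per mouse and in the right flank alone, 2 with limma-voom and a random effect for mouse, 3 on log2(TPM + 1), 5 with the muscle covariate, 6 with limma-voom, 242 in the 3-group fit, and 310 with DESeq2. Genes that moved the same way numbered 0, 0, 2, 3, 5, 6, 75, and 116 in that order, and those without overlap 0, 0, 2, 3, 5, 6, 50, and 61. With a tumor left out, the pooled test called 0 to 57 genes, of which 0 to 36 moved the same way and 0 to 41 had no overlap. Among the genes that moved the same way, 1 differed between the response classes, 0 with 1 library per mouse and 0 to 7 with a tumor left out. Other scalings, filters, the skin covariate, and a log2 fold change over 1 gave 7 to 12 called genes. Of the 10 genes, limma-voom called 6, the random effect 2, log2(TPM + 1) 2, DESeq2 8 with 2 not given an adjusted p, and the 3-group fit 10. AI197445 reversed, to 0.06 on log2(TPM + 1), through tumor 33R at 2.96 TPM, without which the difference was -0.15. The other 9 genes kept their sign in every fit run. AI606473 and AI197445 rest on a depth of 2 to 24 counts in a tumor. No paired analysis was possible because the control and anti-PD-1 tumors came from different mice and share no replicate number.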

Other observations

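Genes that the liver X receptors are known to control were read beside Nr1h3, chosen after the values were seen and with no test of them as a group. Pltp, Smpdl3a, and Cd5l belong to these genes and passed the pooled test. Abcg1, a cholesterol exporter, had log2 fold changes of 1.0 in responders and 0.21 in non-responders (pooled edgeR adjusted p = 0.253). Abca1 was at 0.32 and -0.11, Apoe at 0.19 and -0.10, Mylip at -0.03 and 0.12, Srebf1 at -0.09 and -0.29, Scd1 at 0.09 and -0.28, and Lpcat3 at 0.10 and -0.12 in these classes, and none of them passed the pooled test. The related receptor Nr1h2 was at 0.09 and 0.06.

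Other genes of the 3-group fit were higher after anti-PD-1 with a larger difference in responders. Ly6c1, a surface protein of endothelial and immune cells, had log2 fold changes of 2.08 in responders and 0.51 in non-responders (0.49 without 33R) and differed between the classes (edgeR adjusted p = 0.00475). C1qtnf3, a secreted protein of the C1q and tumor necrosis factor family, had 3.02 and 2.09 (edgeR adjusted p = 0.043), and 1.15 in non-responders without 33R, with 1.05 to 3.76 CPM in controls, 2.44 to 22.1 CPM in non-responders, and 6.77 to 29.2 CPM in responders.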
